A study of Rattus norvegicus with 16 samples.

Results

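Carbonic anhydrases are the enzymes that turn carbon dioxide and water into bicarbonate and a proton, and back again. The transcripts of 8 genes of the family (Car2, Car3, Car4, Car5b, Car8, Car9, Car12 and Car14) were followed in the left ventricle of rats with volume overload. They were measured by 13 of the 31099 probe sets on the array, those annotated with exactly 1 of these symbols, and the brightest probe set of each gene stood for it among 14217 genes. The members had been chosen with the values of these same arrays known. Their levels and differences are therefore given as a description, without p values.

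Volume overload was made with an aortocaval fistula (ACF), a surgical shunt from the aorta to the vena cava that returns arterial blood straight to the heart. Left ventricles of adult male Sprague-Dawley rats were taken from 4 control rats and from 4 rats each at 8, 16 and 24 weeks after ACF, and each rat was hybridized to an array of its own, 16 in total. In the study's terms, 8 weeks belongs to compensated hypertrophy (CH) and 16 weeks to heart failure (HF). The labels call the control rats baseline, whereas the methods describe sham operations, and if these rats were killed at baseline, their age and lack of surgery cannot be told apart from the absence of ACF. The titles put 4 arrays at 24 weeks, but their descriptions read 24, 25, 26 and 27 weeks.

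Values are log2 intensities after subtraction of the array's median over all probe sets, so that 0 marks the middle of the array and a difference of 1 on the log2 scale is a factor of 2 in intensity. The medians of the deposited arrays lay at 2 levels, from 6.13 to 6.17 on 9 arrays (4 control, 3 at 8 weeks, 2 at 16 weeks) and from 5.92 to 5.96 on 7 arrays (1 at 8 weeks, 2 at 16 weeks, 4 at 24 weeks). The arrays at 24 weeks and the control arrays thus shared no level. No detection calls came with the values, so whether a dim transcript was present cannot be told. Heart muscle genes were set beside the tissue label, and only Myl2 among them marks the ventricle rather than heart muscle in general. Myl2, the ventricular regulatory light chain, lay between 8.05 and 8.25 on all 16 arrays, and Myh6, Tnnt2, Tnni3, Pln and Ryr2 lay between 6.71 and 8.18. Atrial muscle genes varied between rats of the same group. The mean of Myl4, Myl7 and Sln, which are all atrial muscle genes in rodents, was 4.15 on control array 4, 5.06 and 3.41 on arrays 2 and 4 at 8 weeks and 5.60 on array 3 at 24 weeks, and between -0.18 and 2.71 on the other 12 arrays. Differences are also given below without these 4 arrays, a choice made after the values were seen. In pieces of whole tissue, fewer cells of a type and less RNA per cell cannot be told apart.

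The mammalian enzymes differ in where they work. Car2 is the fast cytosolic enzyme found in most tissues. Car4 is anchored by a lipid to the outer face of the membrane and is known from capillary endothelium and from heart muscle membranes. Car14, Car9 and Car12 span the membrane with the catalytic domain outside the cell. Car5b is mitochondrial, Car3 is a slow cytosolic enzyme abundant in slow skeletal muscle and fat, and Car8 has lost catalytic activity and binds an inositol trisphosphate receptor. In heart muscle the family supplies protons and bicarbonate to the transporters that set intracellular pH.

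Against control, Car4, Car2, Car14 and Car9 were the members with lower values at 16 weeks on all 4 arrays, and no member had higher values on all 4 arrays in any comparison with control. Of all genes, 6.32% lay below control on all 4 arrays at 16 weeks, and 3.43%, 10.1% and 4.82% lay above control on all 4 arrays at 8, 16 and 24 weeks. Car4 showed the largest difference, with 19.9% of the control intensity at 16 weeks. In the limma fit across all genes, 1 member was below the threshold of an adjusted p of 0.05 at 8 weeks (Car2, lower), 4 at 16 weeks (Car2, Car4, Car9 and Car14, all lower) and 1 at 24 weeks (Car2, lower). Lower calls made up 0.00703%, 3.26% and 0.295% of all genes at 8, 16 and 24 weeks, and higher calls 0.0492%, 5.83% and 0.612%. The share of lower calls at 8 weeks was 1 gene, Car2 itself. Nothing is read from the members' counts, since the members were chosen from the same comparisons. The median difference over the 8 members at 8, 16 and 24 weeks was -0.16, -0.37 and -0.17 on the log2 scale, beside medians of -0.0029, -0.0022 and 0.00058 over all genes.

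**Figure D1:**
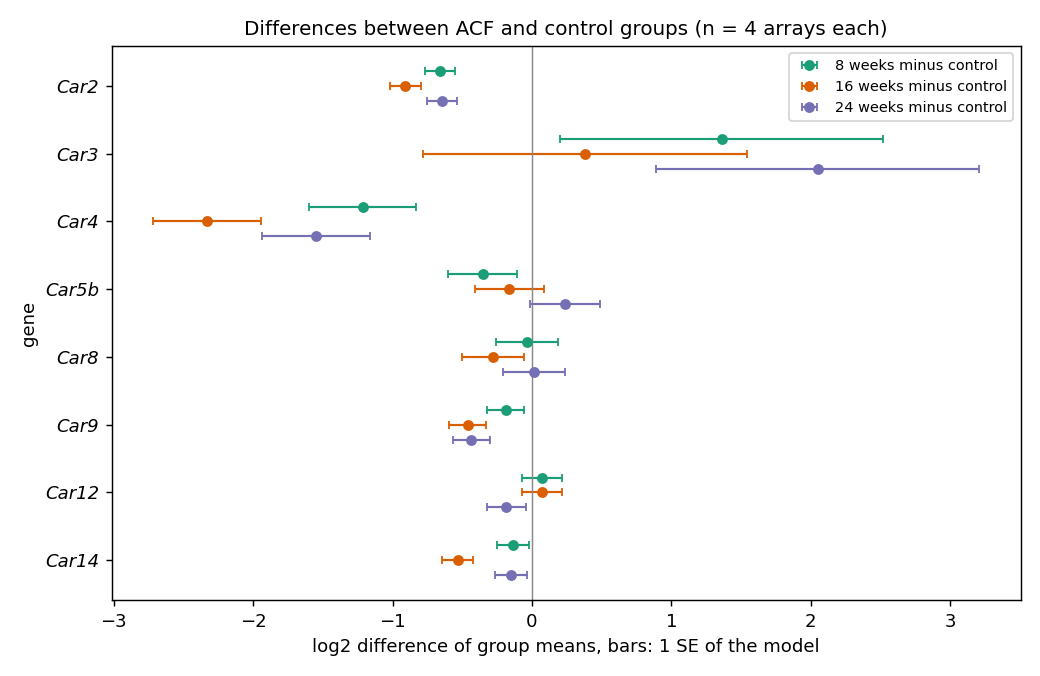
Log2 differences (horizontal axis) between the ACF group at 8, 16 or 24 weeks and control for each of the 8 carbonic anhydrase genes (vertical axis), with bars of 1 SE of the linear model and n = 4 arrays per group. Car4, Car2, Car14 and Car9 lie left of 0 at every time, and the bars of Car3 are the widest, with an SE of 1.16.

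The promoters of the lower members are shown because Car4, Car14 and Car9 had lower values together at 16 weeks. They are windows of 300 bases, 250 before and 50 after the RefSeq start site on GRCr8, of which the table used here held 5 of the 8 members (Car4, Car5b, Car9, Car12 and Car14). Capitals mark ACGTG, the core letters of the hypoxia response element, or CACGT where it reads on the opposite strand.
Car4, chr10:70325108-70325407, plus strand: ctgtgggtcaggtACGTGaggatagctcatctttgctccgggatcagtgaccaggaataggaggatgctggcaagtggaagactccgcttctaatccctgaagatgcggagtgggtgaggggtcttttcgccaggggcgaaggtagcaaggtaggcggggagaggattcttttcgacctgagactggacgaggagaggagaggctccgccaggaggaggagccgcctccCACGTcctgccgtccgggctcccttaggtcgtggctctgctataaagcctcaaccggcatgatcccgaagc
Car14, chr2:186138115-186138414, minus strand: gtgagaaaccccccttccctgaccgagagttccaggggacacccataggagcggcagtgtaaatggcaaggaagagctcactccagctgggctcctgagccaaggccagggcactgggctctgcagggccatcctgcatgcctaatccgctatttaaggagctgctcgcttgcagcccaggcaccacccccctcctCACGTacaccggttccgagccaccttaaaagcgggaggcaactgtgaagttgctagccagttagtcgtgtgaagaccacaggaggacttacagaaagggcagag
Car9, chr5:62558774-62559073, plus strand: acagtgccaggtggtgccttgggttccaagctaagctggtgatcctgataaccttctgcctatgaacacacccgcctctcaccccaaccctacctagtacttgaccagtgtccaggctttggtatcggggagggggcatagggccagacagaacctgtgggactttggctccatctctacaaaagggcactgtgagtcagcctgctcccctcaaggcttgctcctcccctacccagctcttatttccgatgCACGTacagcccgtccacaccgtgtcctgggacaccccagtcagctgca

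The letters ACGTG, searched on both strands, were in 4 of these 5 member promoters, all but that of Car5b, and in 19.25% of 33469 promoters of the same length. They stood at positions 14 and 230 of the Car4 window, 197 of the Car14 window and 252 of the Car9 window, counted from 1 at the 5′ end with the start site at 251. Car12, whose groups overlapped at all times, carried them as well, at positions 261 and 285. The bases G and C made up 59.67%, 57.67%, 59% and 59% of the Car4, Car9, Car12 and Car14 windows. They made up 51.33% of the Car5b window, and their median over all promoters was 51.67%. The share of 19.25% was not matched for base composition, so no excess is read from it. None of the other motifs searched on both strands contains ACGTG. The muscle-type E-box CAGCTG was in the Car14 and Car9 windows and in 15.06% of all promoters, and the TATA box TATAAA was in the Car4 window and in 14.22%. The GC box GGGCGG was in the Car12 window and in 33.06%, and the nuclear receptor half-site AGGTCA was in no member window and in 16.18%. These matches describe letters in a window and not bound sites.

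Car4 (probe set 1368437_at, chromosome 10) had the widest range of the lower members. Its values were 2.72, 2.86, 2.46 and 1.73 on the control arrays and 0.76, 1.27, 0.67 and 2.21 at 8 weeks. They were 0.02, 0.16, -0.27 and 0.53 at 16 weeks and 0.54, -0.17, 1.72 and 1.49 at 24 weeks. All 4 values at 16 weeks lay below all control values and also below all values at 8 weeks, and 1.46% of all genes lay lower and 2.71% higher at 16 than at 8 weeks in this way. At 24 weeks all 4 lay below control, although the highest of them, 1.72, came close to the lowest control value, 1.73, and at 8 weeks the groups overlapped. The group means were 2.44 ± 0.50 in control, 1.23 ± 0.71 at 8 weeks, 0.11 ± 0.33 at 16 weeks and 0.90 ± 0.87 at 24 weeks (SD, n = 4 each). The log2 differences from control were -1.22 at 8 weeks, -2.33 at 16 weeks and -1.55 at 24 weeks, each with an SE of 0.39. In intensity, 43.1%, 19.9% and 34.2% of the control level was left at 8, 16 and 24 weeks.

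Between the times, Car4 was lower at 16 than at 8 weeks by a log2 difference of -1.12, and the difference of 24 from 16 weeks was 0.78, with 3 of 4 arrays at 24 weeks above all at 16 weeks. No gene of the array passed the threshold in either of these comparisons with limma, where 1235 and 1279 genes had an unadjusted p under 0.05. Some of the outermost Car4 values fell on arrays high in atrial muscle genes, in both directions. Control array 4, lowest in Car4 among the controls, and arrays 4 at 8 weeks and 3 at 24 weeks, highest in their groups, were 3 of the 4 arrays with high atrial genes. The remaining array of the 4, array 2 at 8 weeks, lay at neither end of its group. Without those 4 arrays the differences of Car4 from control were -1.96, -2.57 and -2.06 at 8, 16 and 24 weeks. The part of atrial muscle in the spread of Car4 was not tested. Over all 16 arrays Pearson's r of Car4 with the mean of 4 atrial genes was 0.14, and 0.27 in deviations from the group means.

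A second Car4 probe set, 1391132_at, did not show the difference. It was dim, between -1.71 and -0.85 on all 16 arrays, and its correlation with the first was 0.06 over the 16 arrays. Its log2 differences from control were 0.06, -0.00 and 0.24 at 8, 16 and 24 weeks with an SE of 0.13. The lower values of Car4 were thus seen on 1 of its 2 probe sets. With the mean of both probe sets in place of the brighter, the difference of Car4 at 16 weeks was -1.17.

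**Figure D2:**
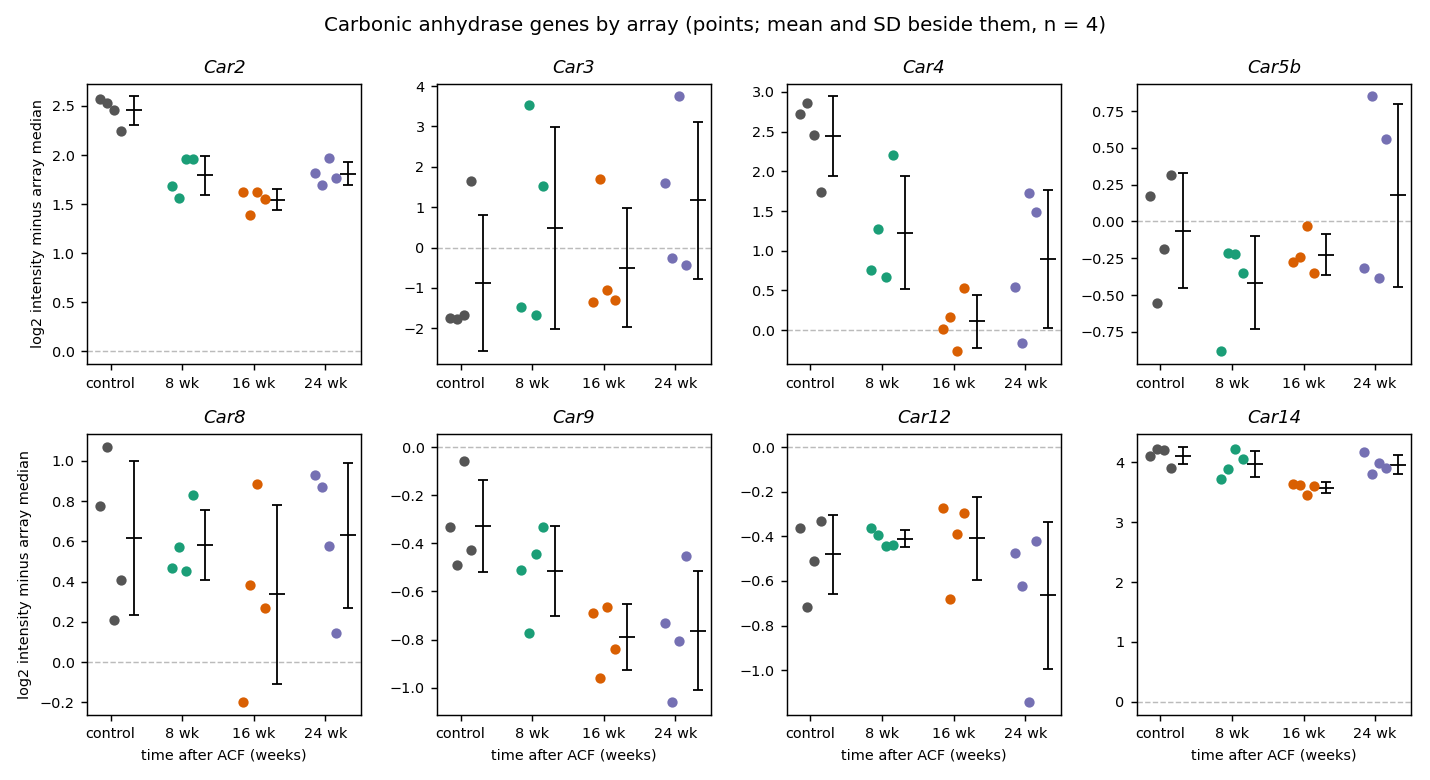
Log2 intensity minus the array median (vertical axes) of each of the 8 carbonic anhydrase genes on 16 arrays, by group from control to 24 weeks after ACF (horizontal axes). Points are single arrays, horizontal ticks and bars beside them are mean and SD (n = 4), and the dashed line marks the array median where it falls in the panel. Car2 and Car4 lie lowest at 16 weeks, and Car3 spreads from -1.76 to 3.74.

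Car2 (probe set 1367733_at, chromosome 2), the cytosolic enzyme, was lower at all 3 times. It measured 2.57, 2.53, 2.46 and 2.25 on the control arrays and 1.69, 1.57, 1.96 and 1.95 at 8 weeks. It measured 1.62, 1.39, 1.62 and 1.55 at 16 weeks and 1.81, 1.69, 1.97 and 1.77 at 24 weeks. No ACF array at any time reached the lowest control array, while 2.73% and 4.46% of all genes had all 4 arrays below control at 8 and 24 weeks. The means were 2.45 ± 0.14 in control, 1.79 ± 0.20 at 8 weeks, 1.55 ± 0.11 at 16 weeks and 1.81 ± 0.12 at 24 weeks (SD, n = 4 each). The differences from control were -0.66, -0.91 and -0.64 on the log2 scale (SE 0.11), which left 63.2%, 53.3% and 64.0% of the control intensity at 8, 16 and 24 weeks. The order of the group means put control first, then 24 and 8 weeks, which overlapped, and 16 weeks last. All 4 arrays at 24 weeks lay above all 4 at 16 weeks, with a difference of 0.26, and 1.29% of all genes were higher and 1.64% lower in this way.

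The second Car2 probe set, 1386922_at, gave differences of -0.65, -0.83 and -0.66 at the same times with an SE of 0.21. With p adjusted over all probe sets, this probe set crossed the threshold at 16 weeks and not at 8 or 24 weeks. On it the 4 values at 24 weeks lay below all controls, while those at 8 and 16 weeks overlapped them. The arrays at 24 and 16 weeks overlapped on this probe set, with a difference of 0.17. The correlation of both Car2 probe sets was 0.80 over the 16 arrays. The crossing of the threshold by Car2 at 8 and 24 weeks hung on single arrays. Leaving out control array 1 or control array 2 ended it at both times, with differences of -0.62 and -0.63 at 8 weeks and of -0.60 and -0.62 at 24 weeks. At 8 weeks it was also lost without control array 3, without array 1, 2 or 3 of its own group and without array 4 at 16 weeks, with differences between -0.72 and -0.59, and at 24 weeks without array 2 of its own group (-0.60). When the 2 array levels entered the model as a block, the 24-week difference was -0.56 and above the threshold in adjusted p. Red cells hold cytosolic carbonic anhydrases, and of 8 measured red cell genes 0 passed the threshold with limma in any comparison with control. The mean level of the red cell genes ran from 0.53 to 1.72 in control, from 0.67 to 1.09 at 8 weeks, from 0.47 to 1.29 at 16 weeks and from 0.62 to 1.19 at 24 weeks. The second Car2 probe set varied with this mean, with a Pearson's r of 0.72 over the 16 arrays and of 0.87 once each group's mean was taken off, while the first gave 0.25 and 0.22. In control the red cell mean was 1.02, 0.53, 1.72 and 0.75 on arrays 1 to 4, where the second probe set measured 2.40, 1.94, 2.59 and 1.65. At 16 weeks it was 1.07, 0.67, 1.29 and 0.47, where the second probe set measured 1.48, 1.12, 1.85 and 0.83. The part of red cells in the Car2 values was not tested.

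Car14 (probe set 1373790_at, chromosome 2), a membrane enzyme of heart muscle with its catalytic side outside the cell, differed from control at 16 weeks. Its values were 4.11, 4.21, 4.21 and 3.91 in control, 3.73, 3.89, 4.23 and 4.06 at 8 weeks, 3.64, 3.62, 3.45 and 3.60 at 16 weeks and 4.16, 3.80, 3.98 and 3.90 at 24 weeks. Only the 16-week arrays lay apart from the control arrays, and they also lay below all arrays at 8 weeks and below all arrays at 24 weeks. The means were 4.11 ± 0.14 in control, 3.98 ± 0.22 at 8 weeks, 3.58 ± 0.09 at 16 weeks and 3.96 ± 0.16 at 24 weeks (SD, n = 4 each). The log2 differences from control were -0.14, -0.53 and -0.15 at 8, 16 and 24 weeks (SE 0.11), and 69.1% of the control intensity was left at 16 weeks. The difference of 16 from 8 weeks was -0.40 and that of 24 from 16 weeks was 0.38. The second probe set of Car14, 1374039_at, gave -0.21, -0.54 and -0.28 against control (SE 0.13), and all 4 of its values at 16 weeks were below control too, but they overlapped those at 8 and at 24 weeks. Both probe sets correlated at 0.83 over the 16 arrays. Without control array 4 and the other 3 arrays high in atrial genes, the difference at 16 weeks was -0.60. Within the 9 arrays of the higher level it was -0.48, above the threshold in adjusted p.

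Car9 (probe set 1393452_at, chromosome 5), a membrane enzyme known as a target of hypoxia-inducible factors, was dim, below the array median on all 16 arrays. It measured -0.33, -0.49, -0.06 and -0.43 in control and -0.51, -0.77, -0.45 and -0.33 at 8 weeks. It measured -0.69, -0.96, -0.67 and -0.84 at 16 weeks and -0.73, -1.06, -0.81 and -0.45 at 24 weeks. The 16-week arrays lay below all controls, and the arrays at 8 and 24 weeks overlapped them. The log2 differences from control were -0.19, -0.46 and -0.44 at 8, 16 and 24 weeks (SE 0.13), with 72.7% of the control intensity left at 16 weeks. At 16 weeks Car9 no longer crossed the threshold with the array levels as a block, with the methods' t-test, over all probe sets or without the 4 arrays high in atrial genes. The same held without control array 1 or 3 and without array 1, 2 or 4 of the 16-week group. The differences in these settings lay between -0.49 and -0.37.

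These 4 members were grouped because all had lower values at 16 weeks, so their correlations over the same 16 arrays partly follow from that choice. Pearson's r was 0.85 between Car2 and Car4, 0.75 between Car2 and Car14, 0.73 between Car2 and Car9, 0.72 between Car4 and Car14, 0.71 between Car4 and Car9 and 0.58 between Car9 and Car14. The points share the 4 groups, the arrays and their centring. Once each group's mean was taken off, the same correlations were 0.46, 0.61, 0.49, 0.32, 0.34 and 0.28. For likeness to a member, genes named only by a locus or clone identifier were passed over. The genes whose values were most like those of Car4 over the 16 arrays were Tmem88 (r = 0.93), Gsta4 (0.91) and Emc9 (0.91). Those most like Car2 were Gcdh, Svip and Fahd1 (r of 0.91, 0.91 and 0.91), and those most like Car14 were Sys1 (0.94), Plekhb1 (0.85) and Nprl2 (0.84). For Car9 they were Chrnd, Cfc1 and Them7 (r of 0.86, 0.85 and 0.85). Tmem88 was also the gene most like Car4 in deviations from the group means, at an r of 0.85.

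Car3 (probe set 1367896_at, chromosome 2) differed far more between rats than between groups. Its values were -1.74, -1.76, -1.68 and 1.65 in control, -1.47, 3.53, -1.67 and 1.53 at 8 weeks, -1.36, 1.70, -1.06 and -1.29 at 16 weeks and 1.61, -0.25, 3.74 and -0.44 at 24 weeks. In each group 1 or 2 arrays were high and the rest low, and the low arrays at 24 weeks, at -0.25 and -0.44, lay above the low arrays of the other groups, all at -1.06 or below. The differences from control were 1.36, 0.38 and 2.05 on the log2 scale with an SE of 1.16, and all groups overlapped. Without the 4 arrays high in atrial genes they were 0.15, 1.22 and 2.03. The second, dim probe set 1386977_at followed the first at an r of 0.84, with differences of 0.16, -0.07 and 0.09 (SE 0.23).

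The arrays high in Car3 were largely those high in atrial muscle genes. Over the 16 arrays Pearson's r of Car3 with the mean of Myl4, Myl7, Sln and Mybphl, a list chosen after the values were seen, was 0.88 (Spearman's rho 0.72). Myl4, the atrial essential light chain, had an r of 0.90 with Car3. Among genes not named only by a locus or clone identifier, it stood after Spats2l (0.91) and before Igfbp7 (0.89) in likeness to Car3. Without the 2 arrays highest in Car3, the r with Myl4 was 0.79, with Sln 0.65, with Mybphl 0.61 and with Myl7 0.53. Myl7 itself ran from -0.45 to 6.34 among control arrays, from -0.00 to 6.91 at 8 weeks, from -0.57 to 4.01 at 16 weeks and from 0.45 to 6.55 at 24 weeks. Array 1 at 24 weeks departed from the relation, with a Car3 value of 1.61 and an atrial mean of 0.55. Control array 2 and array 1 at 8 weeks departed the other way. Their Car3 values were low, -1.76 and -1.47, while Myl7 was 5.19 and 4.09 and the atrial mean 1.21 and 1.15. Of the other 7 members, none reached such an r with the atrial mean, and their values ran from -0.49 for Car12 to 0.18 for Car8.

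**Figure D3:**
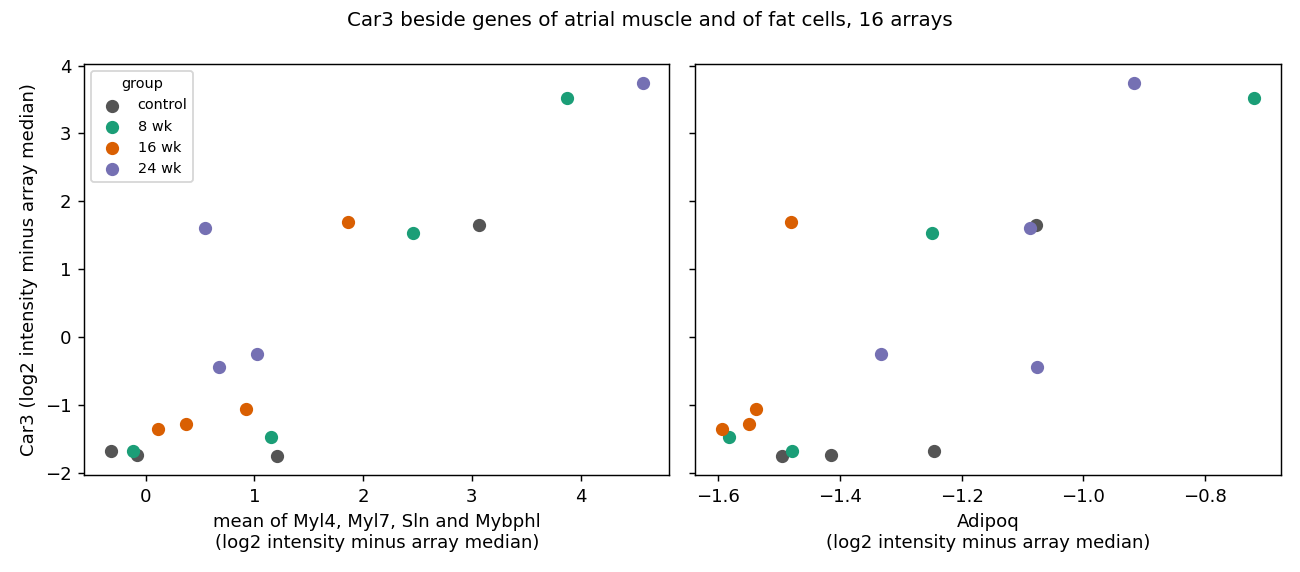
Car3 (vertical axis) against the mean of Myl4, Myl7, Sln and Mybphl (left) and against Adipoq (right), all as log2 intensity minus the array median, with 1 point per array and 16 arrays in 4 groups. In each of the 4 groups the array highest in Car3 is also highest in the atrial mean, and r over the 16 arrays is 0.88. Array 1 at 24 weeks has a high Car3 value, 1.61, with a low atrial mean, 0.55. Adipoq stays below the array median on every array.

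Fat cells are another known source of Car3, and their markers were measured beside it. The r of Car3 over the 16 arrays was 0.79 with Adipoq, 0.58 with Cfd and -0.16 with Plin1, the coat protein of fat droplets. No r is given for the other adipocyte markers. Adipoq and Plin1 lay below the array median on all 16 arrays. The mean of 11 measured adipocyte markers of 13 listed ran from 0.34 to 0.49 in control, from 0.40 to 0.73 at 8 weeks, from 0.18 to 0.44 at 16 weeks and from 0.35 to 0.81 at 24 weeks. This mean was 0.81 on array 3 at 24 weeks and 0.73 on array 2 at 8 weeks, the arrays highest in Car3. On array 2 at 16 weeks, where Car3 was 1.70, it was 0.18, the lowest of the 16 arrays. With limma, 1 of the 11 passed at 16 weeks (Dgat2, lower) and 1 at 24 weeks (Cfd, higher, under 13 of 28 alternative settings). Of 15 measured skeletal muscle markers, 0 passed in any comparison with control, and their mean stayed between 0.65 and 0.96 on all arrays. The parts of atrial muscle and of fat in the Car3 values were not tested.

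The remaining members showed no separation from control. Car5b (probe set 1390807_at, chromosome X), the mitochondrial enzyme, ranged from -0.56 to 0.32 in control, from -0.88 to -0.21 at 8 weeks, from -0.35 to -0.03 at 16 weeks and from -0.38 to 0.85 at 24 weeks. Its differences were -0.35, -0.16 and 0.24 (SE 0.25), and its second probe set, 1377573_at, gave -0.28, 0.01 and 0.15 (SE 0.17). Car8 (1398431_at, chromosome 5), the form without catalytic activity, gave differences of -0.03, -0.28 and 0.01 (SE 0.22), with values between -0.20 and 1.07 over all arrays. Car12 (1391198_at, chromosome 8), a membrane enzyme, was below the array median on all 16 arrays and gave 0.07, 0.07 and -0.18 (SE 0.14). Its lowest value, -1.14, was on array 3 at 24 weeks, the array highest in atrial genes.

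Of the other family genes listed, 6 were measured (Car1, Car5a, Car6, Car7, Car10 and Car11), and with limma 1 of them fell at 16 weeks and 0 passed at 8 or 24 weeks. Car11, a secreted form without catalytic activity, averaged 1.91 ± 0.18 at 16 weeks and 2.29 ± 0.11 in control (SD, n = 4 each), a log2 difference of -0.38 (SE 0.11, limma adjusted p = 0.0391). Its call was kept under 19 of 29 alternative settings and was lost without any single control array, with adjusted p values from 0.0591 to 0.104, and without array 1 or 3 at 16 weeks (-0.29 and -0.38). A further Car11 probe set, 1380675_s_at, gave -0.51 and lay below control on all 4 arrays, and the third, 1374275_at, gave -0.31 with overlap. Car1, the red cell enzyme, and Car6, Car7 and Car10 lay between -2.60 and -1.44 on all arrays. The 5 genes other than Car11 gave differences between -0.20 and 0.10 at 16 weeks.

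The transporters that work beside the enzymes were followed from lists of textbook partners. Bicarbonate transporters carry the product of the enzymes across the membrane, and of 14 measured exchangers and cotransporters 0 rose and 1 fell at 16 weeks by limma. Slc26a6, a chloride and bicarbonate exchanger of heart muscle, fell by 0.42 (log2 difference, SE 0.11, adjusted p = 0.0204), and at 24 weeks by 0.56 (SE 0.11, adjusted p = 0.0235). Its call was made under 22 of 28 alternative settings at 16 weeks and 19 of 27 at 24 weeks. With the array levels as a block the 24-week difference was -0.51 (limma adjusted p = 0.191), and the 24-week arrays and the controls shared no level. The call was also lost without control array 1 or array 1 or 3 of its group at 16 weeks, and without control array 1, 2 or 3 or array 2 or 3 of its group at 24 weeks. The sodium bicarbonate cotransporter Slc4a4 gave 0.30 at 16 weeks (limma adjusted p = 0.323), and the anion exchangers Slc4a2 and Slc4a3 gave -0.21 (adjusted p = 0.228) and -0.26 (adjusted p = 0.306). Slc4a1, the exchanger of red cells, gave 0.42 with an SE of 0.55 (adjusted p = 0.704). The list's median difference at 16 weeks was -0.13.

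Among genes of proton export, 4 of 10 measured rose at 16 weeks and 0 fell, and 0 passed at 8 or 24 weeks by limma. The lactate and proton cotransporters Slc16a1 and Slc16a3 rose by 0.61 (SE 0.12, adjusted p = 0.00614) and 0.51 (SE 0.09, adjusted p = 0.00334). Emb, a partner protein that brings such transporters to the membrane, rose by 0.79 (SE 0.21, limma adjusted p = 0.0272), and Slc9a9, a sodium and proton exchanger of endosomes, by 0.69 (SE 0.19, limma adjusted p = 0.0335). Slc16a1 averaged 6.47 at 16 weeks and 5.86 in control, and Slc16a3 averaged 0.28 at 16 weeks and -0.23 in control. Higher calls made up 5.83% of all genes at 16 weeks. The list's median was 0.0035 at this time, with Slc16a7 at -0.54 (limma adjusted p = 0.0513) and 4 others below 0. The call was made under 28 of 28 alternative settings for Slc16a3, 26 of 29 for Slc16a1 and 20 of 28 each for Emb and Slc9a9. That of Emb was lost without control array 1, 2 or 4 or array 1 or 3 at 16 weeks, and that of Slc9a9 without control array 1, 2 or 3 or array 2 at 16 weeks. When the probe sets of a gene were averaged, Slc16a1 gave 0.21 (limma adjusted p = 0.133) and Slc9a9 0.31.

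**Figure D4:**
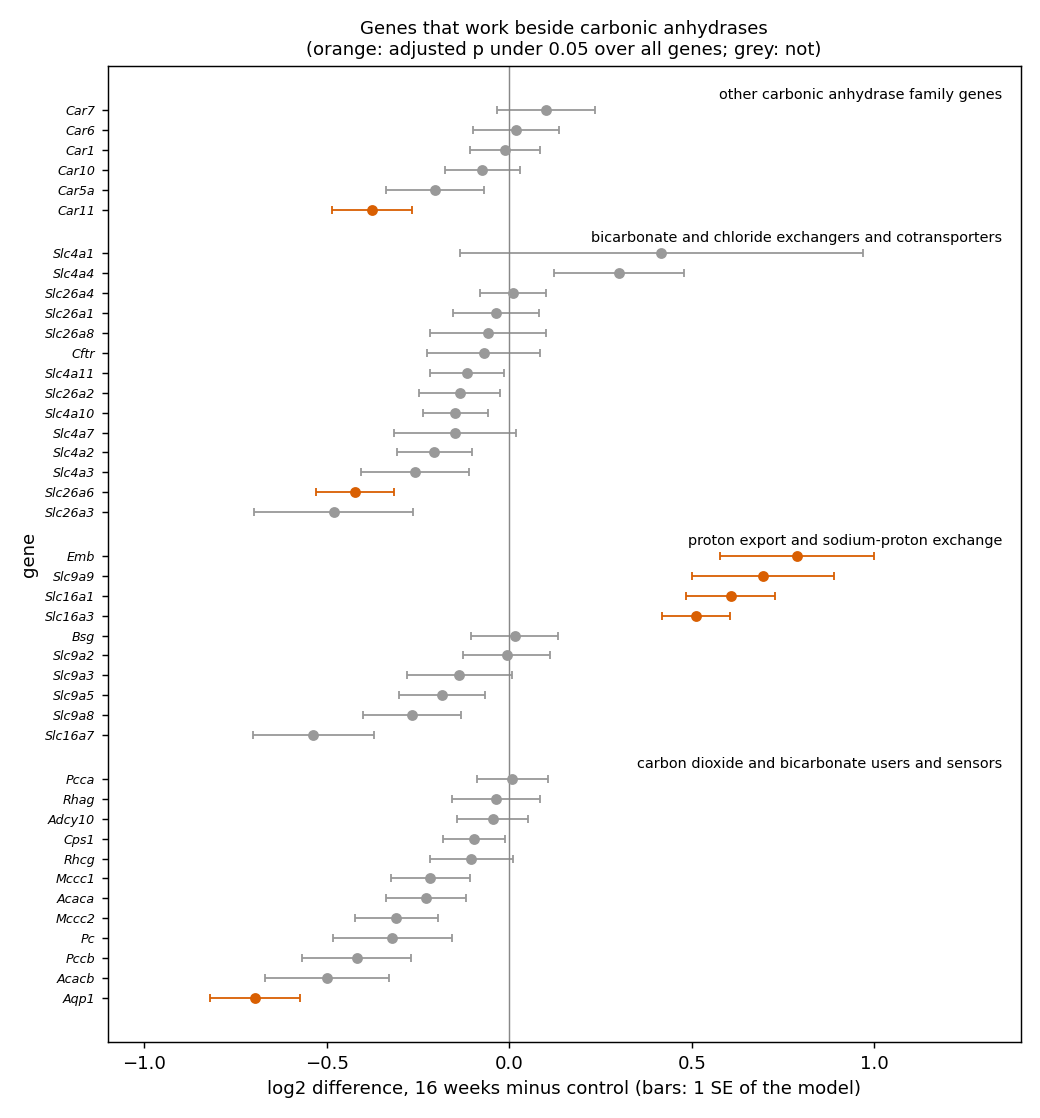
Log2 differences of 16 weeks from control (horizontal axis, bars of 1 SE of the model, n = 4 arrays per group) for measured genes of 4 lists (vertical axis). Orange points passed an adjusted p of 0.05 over all genes with limma, and they are Car11, Slc26a6 and Aqp1 below 0 and Emb, Slc9a9, Slc16a1 and Slc16a3 above 0.

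Of 12 measured genes that use or sense carbon dioxide and bicarbonate, 0 rose and 1 fell at 16 weeks by limma. Aqp1, a water channel of endothelium and red cells that also passes carbon dioxide, averaged 4.77 at 16 weeks and 5.46 in control, with a log2 difference of -0.70 (SE 0.12, adjusted p = 0.00303). Its differences at 8 and 24 weeks were -0.13 and -0.20. The carboxylases of the list, which consume bicarbonate, did not pass. The list's median difference at 16 weeks was -0.22.

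Since Car9 is known as a hypoxia target, 25 measured hypoxia-inducible genes were set beside it. At 16 weeks 3 of them rose and 0 fell by limma. Ndrg1 rose by 1.46 (SE 0.23, adjusted p = 0.00156), Bnip3, a mitochondrial protein, by 0.73 (SE 0.15, adjusted p = 0.00656) and the vasodilator peptide gene Adm by 0.60 (SE 0.16, adjusted p = 0.0295). At 24 weeks Adm alone passed, with a difference of 0.73 (SE 0.16, limma adjusted p = 0.0445), and at 8 weeks 0 passed. The call of Adm was made under 12 of 28 alternative settings at 24 weeks, with differences between 0.52 and 0.89 and adjusted p values of up to 0.222. It was made under 19 of 29 at 16 weeks, with adjusted p values of up to 0.101. Any control array left out ended both calls, as did array 1 or 2 of the 16-week group at 16 weeks and array 1, 2 or 3 of the 24-week group at 24 weeks. The call at 24 weeks was also lost without array 3 at 8 weeks or array 2 at 16 weeks. The list's median was 0.15 at 16 weeks, beside -0.46 for Car9.

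Markers of other cells differed from control at the times when members were low. At 16 weeks 11 of 13 macrophage markers and 6 of 12 fibroblast and matrix markers rose by limma, and 0 fell. The mean of the macrophage markers ran from 2.06 to 2.76 at 16 weeks and from 1.17 to 1.46 in control, and that of the fibroblast markers from 4.34 to 4.82 at 16 weeks and from 3.53 to 4.09 in control. Macrophage markers were also higher when Car2 was low at the other times. Their mean ran from 1.95 to 2.19 at 8 weeks and from 1.65 to 2.17 at 24 weeks, wholly above control, and 2 and 4 of the 13 passed. The fibroblast mean ran from 3.99 to 4.50 at 8 weeks and from 3.94 to 4.62 at 24 weeks, where 0 and 1 of 12 passed. The mean of the endothelial markers, which bear on Car4 and Aqp1, ran from 3.10 to 3.49 at 16 weeks and from 3.00 to 3.34 in control. Of the 14, 1 passed (Vwf, higher), as it did at 24 weeks. The log2 differences of the 14 at 16 weeks went both ways, from -0.61 to 1.31, with a median of 0.12. Cardiomyocyte markers ran from 7.20 to 7.55 at 16 weeks and from 7.46 to 7.57 in control, and 1 of 16 passed (Hrc, a calcium-binding protein of the sarcoplasmic reticulum, lower). Of 10 measured smooth muscle and pericyte markers 0 passed in any comparison with control. The part of these cells in the lower values of Car2, Car4, Car9 and Car14 was not tested.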

How the data were processed

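The authors summarised the scanned arrays by RMA (background correction, quantile normalization and a summary of the probes of a set) in Affymetrix Expression Console 1.2, and the log2 values they deposited for each probe set of 16 arrays were the starting point. Raw intensities were not processed here. The names of the probe sets belong to a rat array of the same maker that differs from the one in the methods. RMA draws low intensities together, so that differences of dim genes can be understated.

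Of 31099 probe sets, 57 control sets were left out, 20832 carried 1 gene symbol in the array's annotation and were used for genes, 436 carried several and 9831 were not named. The member symbols matched a RefSeq gene table of GRCr8. Each array was centred on its median over all probe sets, and the probe set with the highest mean stood for a gene. Group means were estimated together from the 16 arrays with limma 3.58.1 (R 4.3.3), with p adjusted over 14217 genes by the Benjamini-Hochberg method at a threshold of 0.05. SE is that of the model and SD the spread of 4 arrays. No filter on dim genes was applied, and the number of arrays limits the precision.

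The members and the lists were chosen with earlier results of these data known. All 8 members are described. From each other list up to 4 genes that passed with the smallest adjusted p are named, plus all other family genes. Slc4a1 to Slc4a4, Slc16a1, Slc16a3 and Aqp1 are named as well. For Car2, Car3, Car4, Car9 and Car14 the 3 genes with the highest Pearson r are named. Symbols that are only locus or clone identifiers were passed over in this ranking. Outside these rules, heart and atrial muscle genes, Adipoq, Plin1 and Slc16a7 are named. Lists were counted and not tested as sets. The test functions were checked on simulated data. Replicate numbers were not used as pairs: deviations of same-numbered arrays correlated between -0.32 and 0.24, and 6 of 24 pairs were above 0.1. Alternatives covered the scaling, the array level and the replicate number as blocks, the methods' unpaired t-test, variance options, array weights, dim genes, the choice of probe set and each array left out. The t-test was adjusted over all genes like the limma fit and had no cut on fold change. Groups with corrected ACF were not analysed here. Promoters came from a RefSeq table of GRCr8. Figures were drawn with matplotlib 3.10.9.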

Additional observations from a re-analysis of the deposited data

Results flagged for a closer look

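In 64 groups of 4 arrays, over 16 probe sets of the members and Car11, the highest or lowest array was compared with the rest of its group by Dixon's ratio, its gap to the nearest array over the range of the group. In 6 groups it lay far apart, where chance gives about 1 in 20, or 3.2 groups. Car3 stood high on control array 4, with a ratio of 0.975, and on array 2 at 16 weeks, with 0.902. Both arrays were the highest of their group in Myl4, and the part of atrial muscle was not tested. The dim second probe set of Car4 stood high on array 4 at 24 weeks (0.872) and on control array 3 (0.962), where the whole range of the controls was small. The second probe set of Car14 stood high on array 1 at 16 weeks (0.863), yet below all controls. A second probe set of Car11 stood high on array 2 at 8 weeks (0.934).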

How the results depend on the processing

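The count of members called at 16 weeks against control, 4, stayed between 3 and 4 under every alternative. The members were chosen with these values known, so nothing is read from how steady their counts are. Car9 was not among the upper 50% of genes and was not tested in that setting. At 24 weeks, where it was 1, it was 3 with the values as deposited, 0 with the array level as a block, 0 with the methods' t-test, 3 with array weights and 2 without the 4 arrays highest in Myl4, Myl7 and Sln. At 8 weeks, where it was 1, it was 0 with the values as deposited, 0 within the higher level, 0 with the replicate block, 0 with the methods' t-test, 0 with the mean of the probe sets, 0 without the 4 arrays and 2 with array weights. Leaving out 1 array gave 3 to 4 members at 16 weeks, 0 to 3 at 24 weeks and 0 to 1 at 8 weeks, and 0 to 0 for 16 against 8 and for 24 against 16 weeks. Beside losses already named for Car2, the count at 24 weeks was 2 without control array 4 or array 4 at 8 weeks and 3 without array 4 at 24 weeks.

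Over all genes, 1292 were called at 16 weeks, 129 at 24 weeks, 8 at 8 weeks and 0 between times. At 16 weeks the methods' t-test called 220, and leaving out 1 array gave 646 (without control array 1) to 1572. The t-test was run here with adjusted p and no cut on fold change. The paper's own criterion was a fold change over 1.5 with p under 0.05. By the t-test 3135 genes had an unadjusted p under 0.05 at 16 weeks. At 24 weeks the count was 1675 as deposited, 2 with the level block, 0 by the t-test, 829 with array weights, 79 in the upper 50% of genes and 29 without the 4 arrays, and 5 (without control array 1) to 558 (without array 4 at 24 weeks) leaving out 1 array. At 8 weeks it was 1 as deposited, 30 with the level block, 46 within the higher level, 2 with the replicate block, 0 by the t-test, 186 with array weights, 16 in the upper 50%, 5 with the mean of the probe sets, 13 with arrays centred on the genes' median and 0 without the 4 arrays, and 1 to 23 leaving out 1 array. For 16 against 8 weeks it was 236 within the higher level, 1 with trend and robust options, 1 with array weights, 1 in the upper 50% and 0 to 9 leaving out 1 array. For 24 against 16 weeks it was 1 by the t-test, 4 over all probe sets and 0 to 6 leaving out 1 array. The replicate block changed no other count beyond 1.5 times. At 16 weeks the calls were 829 higher and 463 lower, against 705 and 715 with arrays centred on the genes' median and 359 and 1006 as deposited. At 24 weeks they were 87 and 42, against 78 and 57 with arrays centred on the genes' median and 81 and 1594 as deposited. The deposited values moved the median of all genes to -0.12 at 16 weeks and -0.21 at 24 weeks. Centring on the genes' median and leaving out the 4 arrays were chosen after the data were seen. The cause of these shifts was not tested. No called member changed sign under any alternative run. Within the higher level, no value could be had for 24 weeks, which has no such array.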
